A study of Mus musculus with 8 samples.

Results

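Genes of the protein folding and quality control machinery of the endoplasmic reticulum (ER) were examined in mouse liver, as 38 genes listed by symbol: lumenal chaperones, lectin chaperones, disulfide isomerases and oxidases, factors of ER-associated degradation, and the sensors of unfolded protein with the proteases that process them. The deposited table held 36 of the 38 among its 13703 rows. Ero1l and Ero1lb were not listed under those symbols. The RefSeq gene table gives both as older names of Ero1a and Ero1b, which are reported apart and not counted. The study compared livers of Alb-Cre Bicd2 fl/fl mice (4 libraries) with livers of Alb-WT Bicd2 fl/fl mice (4 libraries). All 8 carried loxP-flanked Bicd2, which encodes an adaptor that joins the dynein motor to cargo. Cre under the albumin promoter acts in hepatocytes, and its action in other cells of the liver was not examined here. Every mouse, in both groups, had received S-100, a soluble liver protein fraction in complete Freund's adjuvant, by intraperitoneal injection of 2.5 mg weekly for 3 weeks as a model of autoimmune hepatitis (AIH), and livers were collected 2 weeks after the last injection. No age, sex or strain is given in the labels, and unimmunized livers were not analysed here. The labels do not say that the libraries of a group came from separate animals, so the spread that the p-values rest on may be technical.

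The ER lumen is where secreted and membrane proteins fold. Chaperones of the HSP70 and HSP90 type hold unfolded chains, calnexin and calreticulin bind chains through their sugars, and disulfide isomerases pair their cysteines. Chains that do not fold are passed through a membrane complex to the cytosol and degraded by the proteasome. The sensors IRE1 (Ern1) and ATF6 respond to unfolded protein in the lumen: IRE1 splices the Xbp1 messenger, and ATF6 is cut in the Golgi by the proteases of Mbtps1 and Mbtps2, which releases factors that switch on chaperone genes. Hepatocytes, which secrete most plasma proteins, and plasma cells, which secrete antibody, are rich in this machinery. A level of a gene in FPKM (fragments scaled by gene length and by the total of the library) cannot show Xbp1 splicing or ATF6 cleavage.

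Fragments behind the FPKM values, recovered from the steps between values, came to between 32515623 and 38878688 per library. Bicd2 stood at 0.705, 0.568, 0.509 and 0.732 FPKM in Alb-Cre replicates 1 to 4 and at 2.46, 3.02, 2.80 and 3.11 FPKM in Alb-WT replicates 1 to 4, in the direction of the labels. Among the Alb-Cre libraries, replicate 4 was unlike the rest: its correlation with replicates 1 to 3 over all tested rows (log2 values) was 0.958 to 0.960, against 0.995 to 0.996 among those 3 and 0.974 to 0.977 between replicate 4 and the Alb-WT libraries. Member counts are therefore given with and without it. Of 8 hepatocyte markers in the table (Alb, Ttr, Hnf4a and others), 0 were called with all libraries, and 4 higher and 2 lower (Apoa1 and Hnf4a) without replicate 4. Of all tested rows, 8.48% were called higher and 23.3% lower with all libraries, and 15.2% and 46.1% without replicate 4. The summed level of the 8 hepatocyte markers was 31960 FPKM in Alb-Cre replicate 4, 43350 to 44860 in the other Alb-Cre libraries and 40370 to 41470 in Alb-WT.

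The promoters of 4 called members are shown because each holds an exact ER stress response element (ERSE), CCAAT followed by 9 free bases and CCACG, the sequence that ATF6 and XBP1 are known to bind together with NF-Y. That of Sdf2l1, a member called higher with no exact element in this window, is set beside them. Each is the RefSeq sequence of build GRCm38.p6 from 250 bases before to 50 bases after the gene start, 5′ to 3′ on the strand of the gene, with the ERSE in capitals. An element on the opposite strand reads CGTGG, 9 free bases and ATTGG in these lines.
Creld2 (chr15:88819396-88819695, + strand): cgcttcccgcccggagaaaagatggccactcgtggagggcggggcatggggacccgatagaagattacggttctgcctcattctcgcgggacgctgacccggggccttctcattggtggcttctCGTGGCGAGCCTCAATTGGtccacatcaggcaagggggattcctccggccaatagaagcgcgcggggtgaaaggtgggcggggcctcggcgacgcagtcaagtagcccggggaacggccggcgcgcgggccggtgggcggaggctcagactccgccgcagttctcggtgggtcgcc
Derl3 (chr10:75893148-75893447, + strand): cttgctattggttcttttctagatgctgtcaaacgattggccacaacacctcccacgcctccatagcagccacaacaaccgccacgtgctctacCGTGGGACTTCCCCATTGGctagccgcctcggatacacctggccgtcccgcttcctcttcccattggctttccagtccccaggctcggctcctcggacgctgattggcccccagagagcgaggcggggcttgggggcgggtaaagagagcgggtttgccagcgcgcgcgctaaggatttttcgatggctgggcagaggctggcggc
Hspa5 (chr2:34771840-34772139, + strand): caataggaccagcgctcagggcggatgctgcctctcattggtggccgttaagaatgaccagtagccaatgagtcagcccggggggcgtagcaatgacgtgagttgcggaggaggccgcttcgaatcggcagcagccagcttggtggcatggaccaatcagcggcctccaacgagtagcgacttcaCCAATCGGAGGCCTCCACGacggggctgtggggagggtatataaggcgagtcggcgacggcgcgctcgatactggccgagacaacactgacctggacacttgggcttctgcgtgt
Hsp90b1 (chr10:86705395-86705694, - strand): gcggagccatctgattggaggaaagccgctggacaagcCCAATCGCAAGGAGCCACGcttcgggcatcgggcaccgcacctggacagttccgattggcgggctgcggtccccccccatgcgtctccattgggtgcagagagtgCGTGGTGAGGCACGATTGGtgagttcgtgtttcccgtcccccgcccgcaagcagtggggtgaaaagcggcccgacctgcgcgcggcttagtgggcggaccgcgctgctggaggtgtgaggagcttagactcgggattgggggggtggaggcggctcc
Sdf2l1 (chr16:17132334-17132633, - strand): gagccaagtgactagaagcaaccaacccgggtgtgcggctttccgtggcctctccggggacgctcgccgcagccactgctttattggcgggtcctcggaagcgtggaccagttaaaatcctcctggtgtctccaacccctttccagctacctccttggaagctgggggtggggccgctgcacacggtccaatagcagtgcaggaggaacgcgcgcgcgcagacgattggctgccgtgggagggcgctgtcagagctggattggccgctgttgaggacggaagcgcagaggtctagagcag
Promoters were found for 30 of the 36 members by symbol, and none was at hand for Hyou1, Sil1, Manf, Derl1, Erlec1 and Atf6. The ERSE was searched on both strands, and 9 of the 30 members held it. Of the 10803 genes of the table with a promoter, which include the members here and below, 20 held it (0.185%). Of these, 11 were not counted as members, Ero1b among them. Of all 32851 promoters of this length, 0.119% held it. In Hspa5, the element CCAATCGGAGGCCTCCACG lay 65 to 47 bases before the start. In Creld2, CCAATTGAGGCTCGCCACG lay 126 to 108 bases before it, on the opposite strand, and in Derl3, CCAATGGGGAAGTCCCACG lay 156 to 138 bases before it, also on the opposite strand. Hsp90b1 held a pair, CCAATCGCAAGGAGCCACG at 212 to 194 and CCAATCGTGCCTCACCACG, on the opposite strand, at 107 to 89 bases before the start. The others were Calr (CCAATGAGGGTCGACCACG), Canx (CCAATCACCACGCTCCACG), Dnajc3 (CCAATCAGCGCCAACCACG), Pdia6 (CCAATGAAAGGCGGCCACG) and Syvn1 (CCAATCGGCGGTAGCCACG). Elements were thus present in all the roles except the sensors, and 8 of the 9 holders are among the members called higher below, the exception being Canx. Of the matched members, 8 of 18 called higher and 1 of 12 others held the element. The members were chosen as ER folding and quality control genes, with earlier results of these data known. These counts are therefore not independent evidence of a link between element and level, which was not tested. The related ERSE-II, ATTGG, 1 free base and CCACG, searched on both strands, was found in Dnajb11 (7 to 17 bases after the start) and Herpud1 (52 to 42 bases before it), against 0.0833% of the table's genes. The XBP1-type element TGACGTGG, searched likewise, was found in Txndc5 and Txndc11, against 1.01%. The short parts of the ERSE are common, and every ERSE contains both: CCACG was present in 25 of the 30 members and in 50.3% of the table's genes, and CCAAT in 22 of the 30 and in 42.9%. A match is a run of letters and not a measured binding site.

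**Figure D1:**
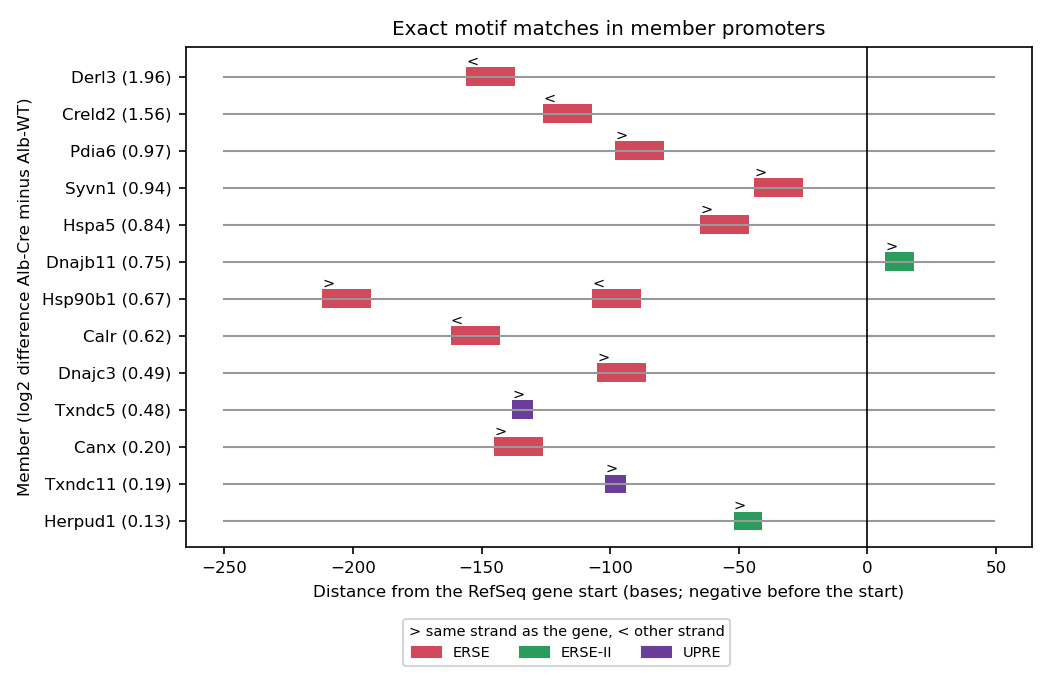
Positions of exact ERSE, ERSE-II and TGACGTGG matches in the promoters of the members that hold any of them, with distance from the RefSeq gene start in bases on the x axis (negative before the start) and the log2 difference between genotypes in brackets after each name. All ERSE matches lie before the start, from 212 bases upstream in Hsp90b1 to 26 bases upstream in Syvn1.

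Most chaperone and disulfide isomerase genes and some degradation genes were higher in Alb-Cre livers, and of the sensors and their processing genes Xbp1 alone was called higher. Of the 36 members, which all passed the filter on low values, 20 were called higher, 1 lower (Erlec1) and 15 were not called (limma on log2(FPKM + 1), adjusted p under 0.05 over 11077 tested rows). Of all tested rows, 8.48% were called higher and 23.3% lower. The median log2 fold change was 0.35 over the members, 28 of which had a value above 0, and -0.13 over all tested rows, of which 32.3% had one above 0. Values of the genotypes did not overlap in 24 members with Alb-Cre above and in 1 with Alb-Cre below, against 9.27% and 21.4% of tested rows, 30.6% in all. Summed over the 36 members, the level was 3763, 3702, 3857 and 4145 FPKM in Alb-Cre replicates 1 to 4 and 2499, 2413, 2466 and 2454 FPKM in Alb-WT replicates 1 to 4. All 4 Alb-Cre sums lay above all Alb-WT sums, with replicate 4 the highest. In bulk liver a change in the number of cells of a type and a change in RNA per cell cannot be told apart. Without Alb-Cre replicate 4, 25 members were called higher and 6 lower, against 15.2% and 46.1% of tested rows, and the members' median was 0.30.

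**Figure D2:**
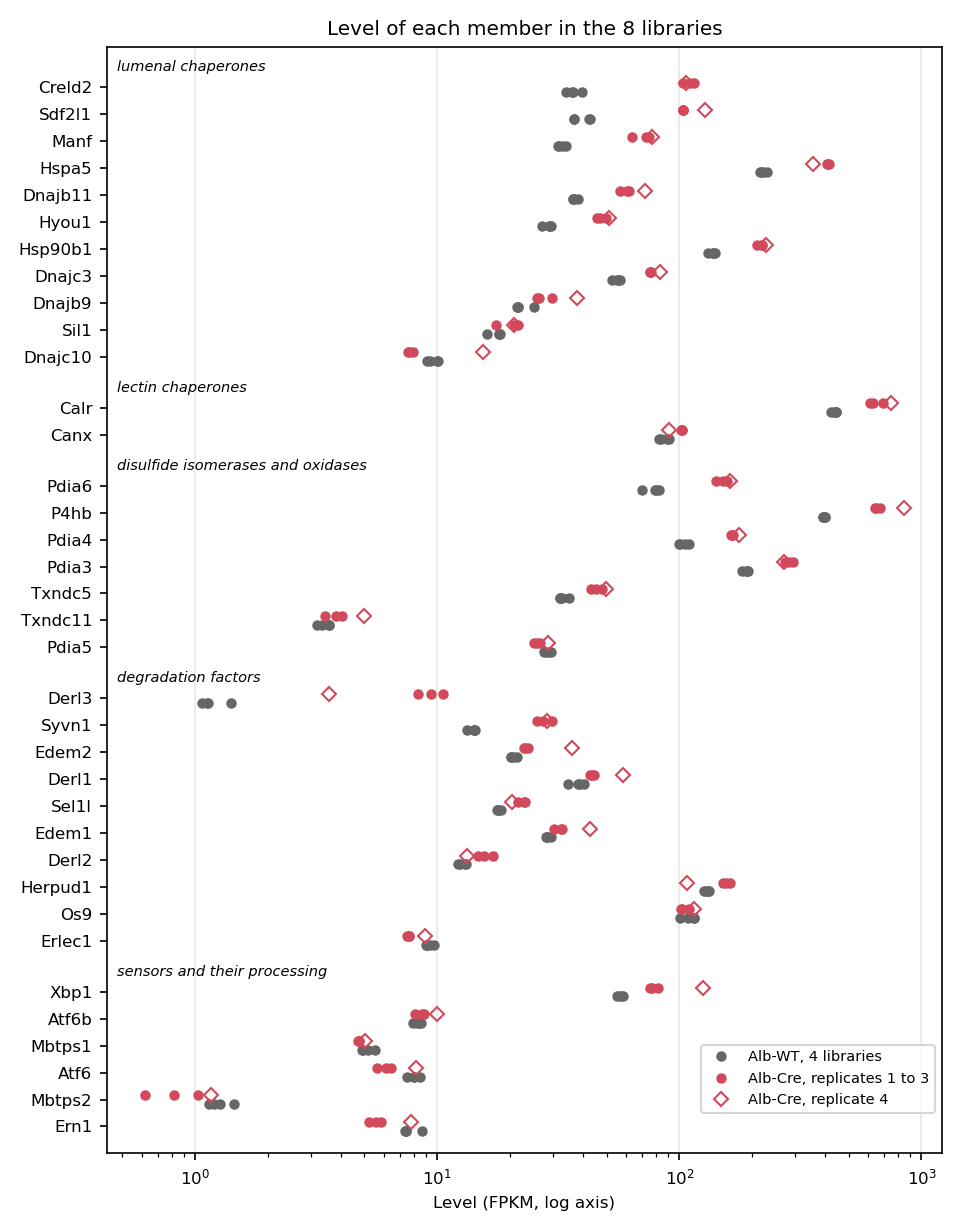
Level of each of the 36 members in each library (FPKM, log axis), 4 Alb-Cre and 4 Alb-WT points a gene, grouped by role. Levels in Alb-WT run from 1.18 FPKM for Derl3 to 435 FPKM for Calr, and most chaperones show Alb-Cre points to the right of the Alb-WT points.

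Levels spanned a wide range in Alb-WT livers. FPKM, being per length, can be set against each other between genes, though only roughly. The SDs below hold the spread between libraries and not errors that differ from gene to gene. Calr was the most abundant member at 435 ± 8.79 FPKM (SD, n = 4), followed by P4hb at 396 ± 3.44, Hspa5 at 221 ± 6.65, Pdia3 at 188 ± 4.19 and Hsp90b1 at 137 ± 3.74, each apart from its neighbour by more than these SDs. At the other end stood Txndc11 at 3.41 ± 0.197, Mbtps2 at 1.26 ± 0.132 and Derl3 at 1.18 ± 0.152 FPKM, the last pair within their SDs of each other. In Alb-Cre livers P4hb, at 705 ± 96.3 FPKM, and Calr, at 672 ± 60.9, were the highest and lay within their SDs of each other.

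Among the lumenal chaperones, 9 of 11 were called higher and 0 lower, with a median log2 fold change of 0.73. Without Alb-Cre replicate 4 these were 9 higher and 1 lower. The shares of all tested rows were 8.48% higher and 23.3% lower, and 15.2% and 46.1% without that library. Creld2, a secreted and ER-resident protein induced by ER stress, stood at 110.4, 104, 115 and 107 FPKM in Alb-Cre replicates 1 to 4 and at 36.4, 33.9, 36.1 and 39.5 FPKM in the Alb-WT replicates. The Alb-Cre libraries lay close together, replicate 4 among them, and far above all Alb-WT libraries, a 2.99-fold ratio of means (log2 fold change 1.56, SE 0.067, limma adjusted p = 9.42e-06). Sdf2l1, which works with the ER HSP40 proteins to keep chains soluble, was at 103, 103, 103 and 127 FPKM against 36.6, 42.7, 36.8 and 42.5. Its groups did not overlap, and replicate 4 was the highest library (log2 fold change 1.44, SE 0.093, limma adjusted p = 6.74e-05). Manf, a small chaperone-binding protein that is also secreted, was at 74.6, 63.6, 72.9 and 76.8 FPKM against 33.1, 31.5, 31.8 and 34.0. All Alb-Cre values exceeded all Alb-WT values, and the ratio of means was 2.21 (log2 fold change 1.12, SE 0.072, limma adjusted p = 6.74e-05).

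Hspa5 encodes BiP, the HSP70 of the ER, which binds unfolded chains and holds the sensors inactive. It stood at 415, 407, 409.8 and 355 FPKM in Alb-Cre and at 230.4, 216, 222 and 217 FPKM in Alb-WT, so that replicate 4 was the lowest Alb-Cre library but still far above the highest Alb-WT library. The log2 fold change was 0.84 (SE 0.073, limma adjusted p = 0.000255). Dnajb11, an HSP40 partner of BiP, was at 60.7, 56.9, 61.9 and 71.9 FPKM against 38, 36.8, 36.4 and 36.5, and Hyou1, a large HSP70 that exchanges the nucleotide of BiP, at 47.2, 45.6, 49.8 and 51.1 FPKM against 29.0, 27.1, 29.3 and 29.5. Neither gene's groups overlapped, and the log2 fold changes were 0.75 (SE 0.077) and 0.73 (SE 0.062). Hsp90b1, which encodes the ER HSP90, rose from 137 ± 3.74 to 218 ± 7.54 FPKM (SD, n = 4, log2 fold change 0.67). Dnajc3, another co-chaperone and known as an inhibitor of the kinase PERK, rose by 0.49, and Dnajb9, a BiP partner that is a known Xbp1 target, by 0.39 on the log2 scale (limma adjusted p = 0.0378 for Dnajb9). The Dnajb9 call was lost in 8 of the 17 alternatives run. Sil1, the other nucleotide exchange factor of BiP, had a log2 fold change of 0.19 (limma adjusted p = 0.0955), and Dnajc10, a disulfide reductase that acts in degradation, one of -0.05. Dnajc10 stood at 7.57, 7.90, 7.66 and 15.4 FPKM in Alb-Cre and at 9.06 to 10.0 FPKM in Alb-WT: replicates 1 to 3 lay below all Alb-WT libraries and replicate 4 above them.

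Both lectin chaperones had positive log2 fold changes. Calr, which encodes soluble calreticulin, rose from 435 ± 8.79 to 672 ± 60.9 FPKM (SD, n = 4, log2 fold change 0.62, SE 0.082, limma adjusted p = 0.00159). Canx, which encodes the membrane-bound calnexin, stood at 91.0 to 102 FPKM in Alb-Cre and at 82.0 to 90.4 FPKM in Alb-WT, with no overlap, a log2 fold change of 0.20 and a limma adjusted p of 0.0509, just outside the threshold. It was called higher without Alb-Cre replicate 4, at 0.24 (limma adjusted p = 0.00143).

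Of the 7 disulfide isomerases and oxidases in the table, 5 were called higher and 0 lower, with a median log2 fold change of 0.57. Without Alb-Cre replicate 4 these were 5 higher and 1 lower. The shares of all tested rows were 8.48% higher and 23.3% lower, and 15.2% and 46.1% without that library. Pdia6, an isomerase that also binds IRE1, was at 157, 142, 151 and 162 FPKM in Alb-Cre and at 82.5, 69.9, 80.1 and 79.2 FPKM in Alb-WT. Every Alb-Cre library was above every Alb-WT library (log2 fold change 0.97, SE 0.075, limma adjusted p = 0.000148). P4hb, the abundant protein disulfide isomerase, was at 649.5, 644, 677 and 848 FPKM against 398, 392, 399 and 393. The Alb-WT libraries were within a narrow band, and replicate 4 was well above the other Alb-Cre libraries (log2 fold change 0.82, SE 0.098, limma adjusted p = 0.000982). Pdia4 rose by 0.69, Pdia3, the isomerase that works with calnexin and calreticulin, by 0.57, and Txndc5 by 0.48 on the log2 scale. Pdia5 (log2 fold change -0.10, limma adjusted p = 0.212) and Txndc11 (0.19, limma adjusted p = 0.153) were not called. Of the oxidases that renew the isomerases, Ero1b, not counted among the members, rose from 15.0 ± 0.877 to 18.7 ± 1.31 FPKM (SD, n = 4, log2 fold change 0.30, limma adjusted p = 0.0166). Ero1a, its paralogue, fell from 4.45 ± 0.344 to 3.37 ± 0.278 FPKM (log2 fold change -0.32, limma adjusted p = 0.0164). The Ero1a call was lost in 7 of 16 alternatives, and its log2 fold change was -0.16 with median-of-ratios scaling (limma adjusted p = 0.158).

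Of the 10 degradation factors, 4 were called higher and 1 lower, and the median log2 fold change was 0.27. Leaving out Alb-Cre replicate 4 gave 8 higher and 1 lower, with a median of 0.23. Calls over all tested rows rose as well, from 8.48% higher and 23.3% lower to 15.2% and 46.1%. Derl3, a Derlin of the membrane channel through which chains leave, was at 8.35, 10.6, 9.46 and 3.56 FPKM in Alb-Cre and at 1.12, 1.07, 1.13 and 1.41 FPKM in Alb-WT. Replicate 4 was less than the other Alb-Cre libraries and above all Alb-WT libraries, and the ratio of means, 6.75, exceeded that of any other member. The log2 fold change was 1.96 (SE 0.259, limma adjusted p = 0.00162) with all libraries and 2.26 without replicate 4, from 75 to 705 fragments per library. Syvn1, which encodes the ubiquitin ligase HRD1 at the centre of the complex, was at 25.8, 27.2, 29.7 and 28.4 FPKM against 14.2, 13.2, 14.3 and 14.2. The groups were well apart with replicate 4 among the other Alb-Cre libraries (log2 fold change 0.94, SE 0.063, limma adjusted p = 7.25e-05). Sel1l, the membrane partner of HRD1, rose by 0.28 on the log2 scale (limma adjusted p = 0.011), and Derl2 by 0.23 (limma adjusted p = 0.0483, a call lost in 11 of 17 alternatives).

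The remaining Derlin, Derl1, had a log2 fold change of 0.30 (limma adjusted p = 0.0577). Edem1 and Edem2, which trim mannose from chains bound for degradation, had log2 fold changes of 0.25 (limma adjusted p = 0.083) and 0.32 (limma adjusted p = 0.105). Herpud1, a scaffold of the HRD1 complex, was not called at 0.13. All 4 were called higher without Alb-Cre replicate 4, with log2 fold changes of 0.19 for Derl1, 0.15 for Edem1, 0.16 for Edem2 and 0.26 for Herpud1. In Edem2, Alb-Cre replicate 4 stood at 36.1 FPKM against 22.8 to 23.7 FPKM in Alb-Cre replicates 1 to 3 and 20.1 to 21.4 FPKM in Alb-WT, and in Herpud1 at 107 FPKM against 151 to 162 and 126 to 132. Replicate 4 was thus the highest of all libraries in the first gene and the lowest in the second. Of the lectins that read the trimmed sugars, Os9 had a log2 fold change of -0.03, and Erlec1 fell by 0.21 on the log2 scale, from 9.27 ± 0.315 to 7.91 ± 0.660 FPKM (SD, n = 4, limma adjusted p = 0.0475). The Erlec1 call held in 4 of 17 alternatives, and its log2 fold change was -0.03 with median-of-ratios scaling.

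Of the 6 sensors and processing genes, 1 was called higher, Xbp1, 0 were called lower, and the median log2 fold change was -0.16. Without Alb-Cre replicate 4, 1 was called higher and 3 lower, beside 15.2% and 46.1% of all tested rows. Their median log2 fold change was then -0.20, and that of all tested rows -0.16. Xbp1 stood at 77.0, 81.9, 76.0 and 125 FPKM in Alb-Cre and at 58.2, 55.1, 58.1 and 56.3 FPKM in Alb-WT. Its groups did not overlap, and replicate 4 lay far above the other libraries (log2 fold change 0.62, SE 0.149, limma adjusted p = 0.0171). The log2 fold change was 0.45 without replicate 4 (limma adjusted p = 1.45e-05) and 0.50 with quantile normalization, where the call was lost (limma adjusted p = 0.056). Atf6 was at 6.16, 5.65, 6.45 and 8.15 FPKM in Alb-Cre and at 8.49, 8.02, 8.02 and 7.50 FPKM in Alb-WT, and Ern1 at 5.85, 5.59, 5.21 and 7.78 FPKM against 7.41, 7.44, 8.62 and 7.36. In both genes Alb-Cre replicates 1 to 3 lay below every Alb-WT library and replicate 4 lay among them. With all libraries neither was called: log2 fold change -0.25 (SE 0.1, 95% interval -0.48 to -0.03, limma adjusted p = 0.0778) for Atf6 and -0.30 (SE 0.112, 95% interval -0.56 to -0.05, limma adjusted p = 0.0643) for Ern1. Without replicate 4 both were called lower, at -0.35 (limma adjusted p = 0.000841) and -0.41 (limma adjusted p = 0.000497). Mbtps2, the site-2 protease gene, had a log2 fold change of -0.25 (limma adjusted p = 0.0798), while Mbtps1, of the site-1 protease, and Atf6b, the ATF6 paralogue, had -0.07 and 0.08.

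**Figure D3:**
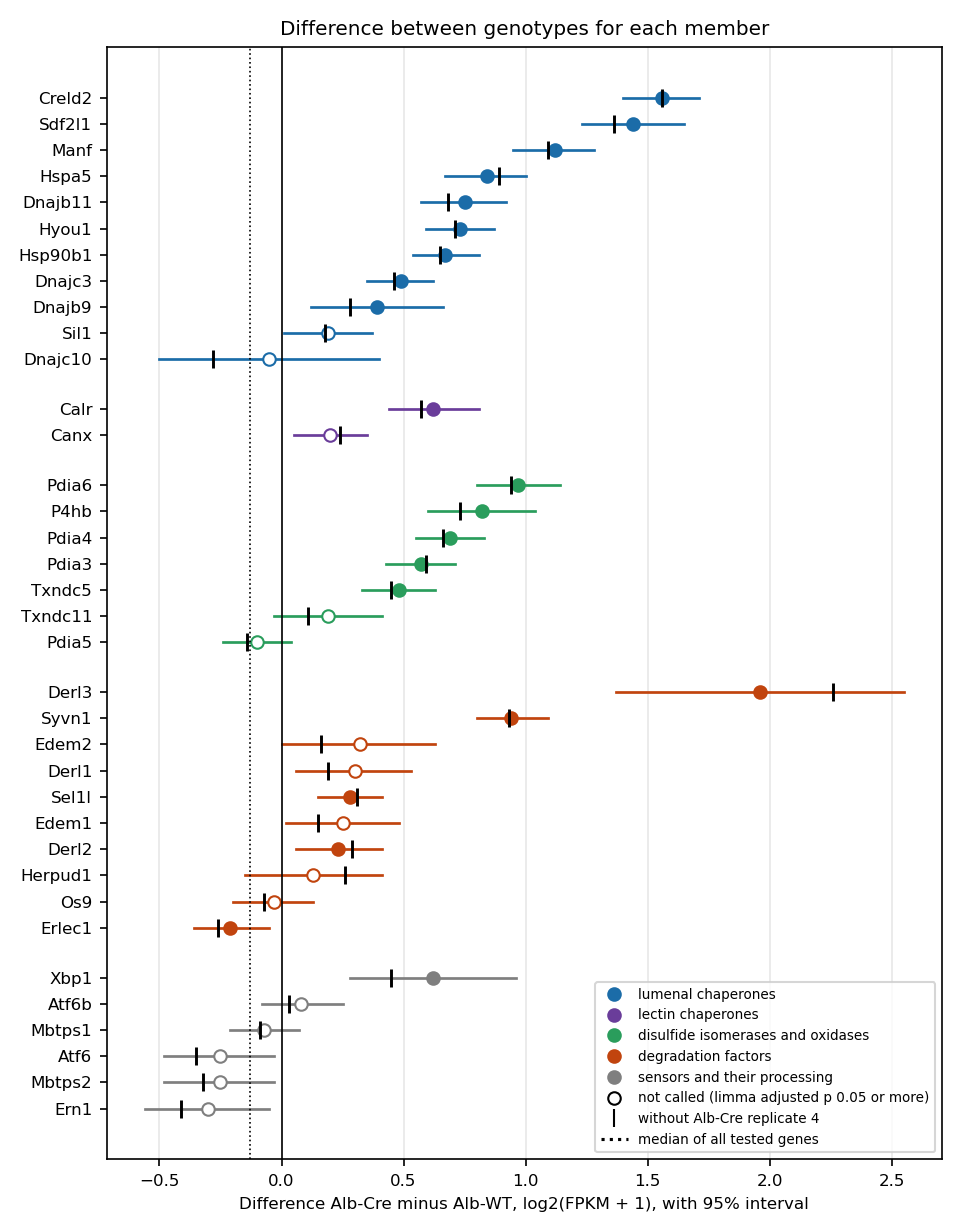
Difference between genotypes for each member, Alb-Cre minus Alb-WT on the log2(FPKM + 1) scale, with the 95% interval of the limma fit and members grouped by role. Derl3 lies farthest right at 1.96 with the widest interval, followed by Creld2 at 1.56 and Sdf2l1 at 1.44, and Ern1 lies farthest left at -0.30.

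Alb-Cre replicate 4 departed from the other Alb-Cre libraries in many members but not in one direction. Its level was above replicates 1 to 3 in 26 members, below them in 7 and within their range in 3, and over all tested rows it was above in 60.1% and below in 20.5%. It exceeded the other Alb-Cre libraries in 6 of 6 sensors and processing genes, 8 of 11 lumenal chaperones and 5 of 10 degradation factors. Its difference from Alb-WT and that of replicates 1 to 3 were 1.53 and 1.56 on the log2 scale for Creld2 and 0.97 and 0.93 for Syvn1. It gave a larger difference for Sdf2l1 (1.66 and 1.36), Dnajb11 (0.94 and 0.68), Xbp1 (1.13 and 0.45), P4hb (1.1 and 0.73) and Edem2 (0.78 and 0.16), and a smaller one for Hspa5 (0.68 and 0.89) and Derl3 (1.07 and 2.26). For Dnajc10 (0.64 and -0.28) and Herpud1 (-0.27 and 0.26) the difference had the opposite sign. It did so too, with replicate 4 near Alb-WT, for Atf6 (0.02 and -0.35), Ern1 (0.01 and -0.41), Pdia5 (0.01 and -0.14) and Os9 (0.07 and -0.07). Without this library Canx, Derl1, Herpud1, Edem1 and Edem2 were called higher beside the 20 members called with it, and Pdia5, Dnajc10, Erlec1, Atf6, Ern1 and Mbtps2 were called lower.

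**Figure D4:**
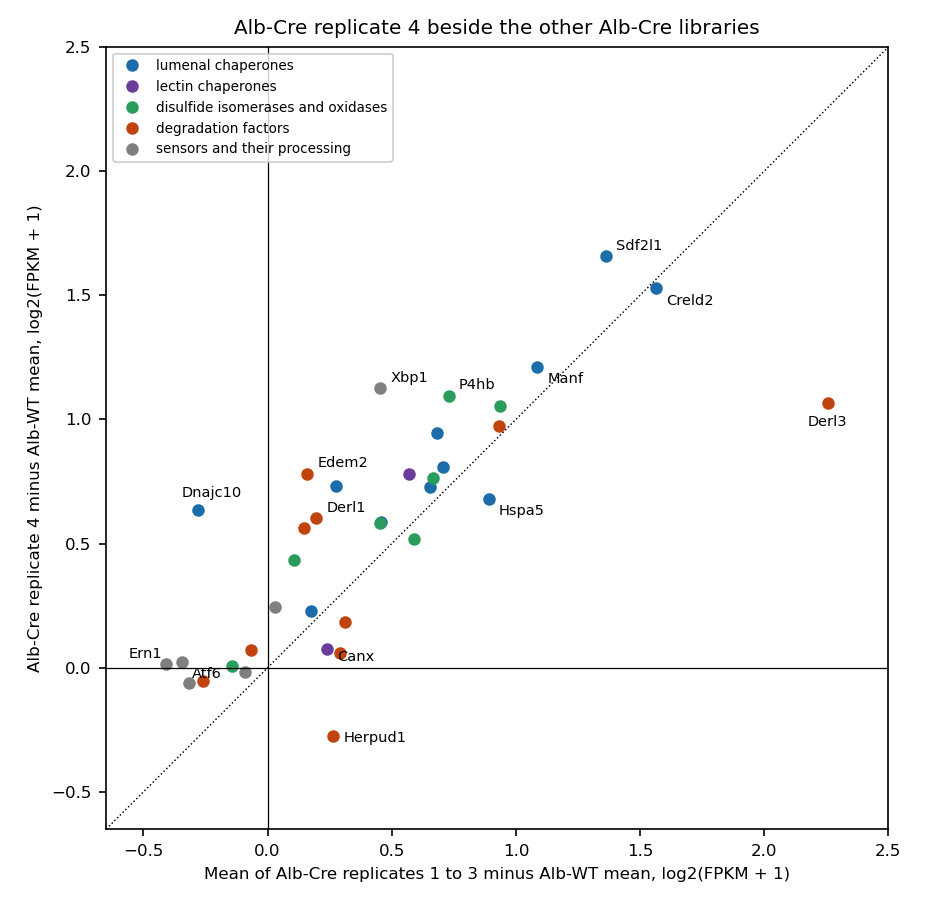
Difference of Alb-Cre replicate 4 from the Alb-WT mean (y axis) against that of the mean of Alb-Cre replicates 1 to 3 (x axis), both on the log2(FPKM + 1) scale, 1 point a member, coloured by role, with the line of equality. Creld2 and Syvn1 lie near the line, Xbp1, Edem2 and Dnajc10 above it and Derl3 and Herpud1 below it.

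Markers of other secretory and immune cells moved with the libraries. Of 15 plasma cell genes, 11 were in the table and 8 were tested, of which 1 was called higher (Fkbp11, itself an ER prolyl isomerase) and 2 lower, and 1 higher and 6 lower without Alb-Cre replicate 4. The summed level of the 11 was 416 FPKM in Alb-Cre replicate 4, 90.4 to 98.0 in the other Alb-Cre libraries and 139 to 152 in Alb-WT. Sdc1 alone made up 50.6 to 57.5 FPKM of this in Alb-Cre replicates 1 to 3 and 62.5 to 66.7 in Alb-WT. Igkc, an antibody light chain gene, made up 214 FPKM in replicate 4, and Mzb1, Tnfrsf17 and Ighg1 were not in the table. Of 12 genes of pancreatic acinar cells, which share this machinery, 3 were in the table, and Prss1, Cpa1 and Pnlip were not. Of the 2 tested, Cela1 was called higher (log2 fold change 1.74) and Cela2a was not (0.01). The sum of the 3, most of it Cela1, was 16.4 to 18.0 FPKM in Alb-Cre replicates 1 to 3, 6.03 in replicate 4 and 3.52 to 4.24 in Alb-WT. Cela2a (1.07 FPKM) and Ctrl (0.574 FPKM) were instead highest in replicate 4. Derl3 showed the order of the sum, as did Hspa5, Canx, Pdia3, Derl2 and Sel1l. All 8 Kupffer cell markers were called lower, with sums of 256 to 266 FPKM in Alb-Cre replicates 1 to 3, 743 in replicate 4 and 776 to 825 in Alb-WT. The 5 neutrophil markers in the table were also called lower, with sums of 7.03 to 7.39, 86.5 and 263 to 325 FPKM in the same order. Lower calls were also made for 4 of 4 tested cholangiocyte, 3 of 6 stellate and 2 of 5 endothelial markers, and for 0 of 2 tested B cell markers. Without Alb-Cre replicate 4 these were 4 of 4, 4 of 6, 3 of 5 and 2 of 2. The endothelial marker Clec4g was then called higher (log2 fold change 0.48, limma adjusted p = 0.000173). The endothelial sum was 29.45 to 31.96 FPKM in Alb-Cre replicates 1 to 3, 24.12 in replicate 4 and 29.42 to 31.58 in Alb-WT. Of all tested rows, 8.48% were called higher and 23.3% lower, and 15.2% and 46.1% without Alb-Cre replicate 4. The Kupffer cell, neutrophil, plasma cell, B cell, stellate and cholangiocyte sums were lower in Alb-Cre replicates 1 to 3 than in replicate 4 and Alb-WT. The hepatocyte, acinar and endothelial sums were not. Levels of Atf6, Ern1, Mbtps1, Mbtps2, Dnajc10, Pdia5, Erlec1 and Asns, named here for this order, were lower in Alb-Cre replicates 1 to 3 than in replicate 4 and Alb-WT. How many of all tested rows share the order was not counted. Over those rows replicate 4 lay above replicates 1 to 3 in 60.1%. The part of any of these cell types in the members' levels was not tested.

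Further genes of ER quality control came from lists of the lectin cycle, further oxidoreductases, prolyl isomerases and co-chaperones, and membrane extraction and ubiquitination. Of the 67 tested, 9 were called higher and 2 lower (13.4% and 2.99%, beside 8.48% and 23.3% of all tested rows), and their median log2 fold change was -0.02. These became 14 higher and 15 lower without Alb-Cre replicate 4, beside 15.2% and 46.1% of rows. Ppib, the ER cyclophilin, stood at 32.6, 30.2, 34.9 and 35.9 FPKM in Alb-Cre and at 19.7, 21.8, 19.3 and 21.4 FPKM in Alb-WT (log2 fold change 0.67, limma adjusted p = 0.000674). Creld1, a membrane-bound relative of Creld2, rose by 0.53 (limma adjusted p = 0.00238), and with Fkbp11 and Dnajc25 these made 4 of 18 prolyl isomerases and co-chaperones called higher and 0 lower. Of 13 further oxidoreductases, Tmx2 (0.44) and Prdx4 (0.34), a peroxiredoxin of the ER, rose and Tmx3 fell by 0.38 on the log2 scale. Of 28 genes of extraction and ubiquitination, Selenok (0.42), a partner of the p97 ATPase, and Ubxn4 (0.35) rose and Nploc4 fell by 0.18. Of 8 lectin cycle genes, Lman1, a cargo receptor that carries glycoproteins from the ER, rose by 0.28. Calls were lost in 3 of 17 alternatives for Lman1, 5 of 17 for Tmx2, 8 of 17 for Prdx4, 9 of 16 for Tmx3 and 11 of 17 for Nploc4, and in 0 of 17 for Ppib, Creld1, Selenok and Ubxn4.

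The PERK arm, in which phosphorylation of eIF2 raises the factor ATF4, was described by its own list. Of 11 genes tested, 0 were called higher and 2 lower, with a median log2 fold change of -0.29, beside 8.48% and 23.3% of all tested rows. Sesn2, a stress-induced regulator of growth signalling, was at 1.79, 1.63, 1.79 and 2.56 FPKM in Alb-Cre and at 3.60, 4.14, 3.95 and 4.14 FPKM in Alb-WT (log2 fold change -0.76, limma adjusted p = 0.00167). Asns, asparagine synthetase, was at 1.54, 1.57, 1.49 and 7.14 FPKM against 6.89, 6.4, 6.90 and 6.07, so that replicate 4 was the highest of all 8 libraries while replicates 1 to 3 were the lowest (log2 fold change -1.16, limma adjusted p = 0.0362). The Asns call was lost in 8 of 16 alternatives. Without replicate 4, 1 gene of this arm was called higher and 7 lower, beside 15.2% and 46.1% of tested rows. Of 4 tested genes of the CREB3 family, membrane-anchored factors cut like ATF6, Creb3l1 was called lower (-0.38, 46 to 126 fragments per library), a call lost in 7 of 16 alternatives.

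**Figure D5:**
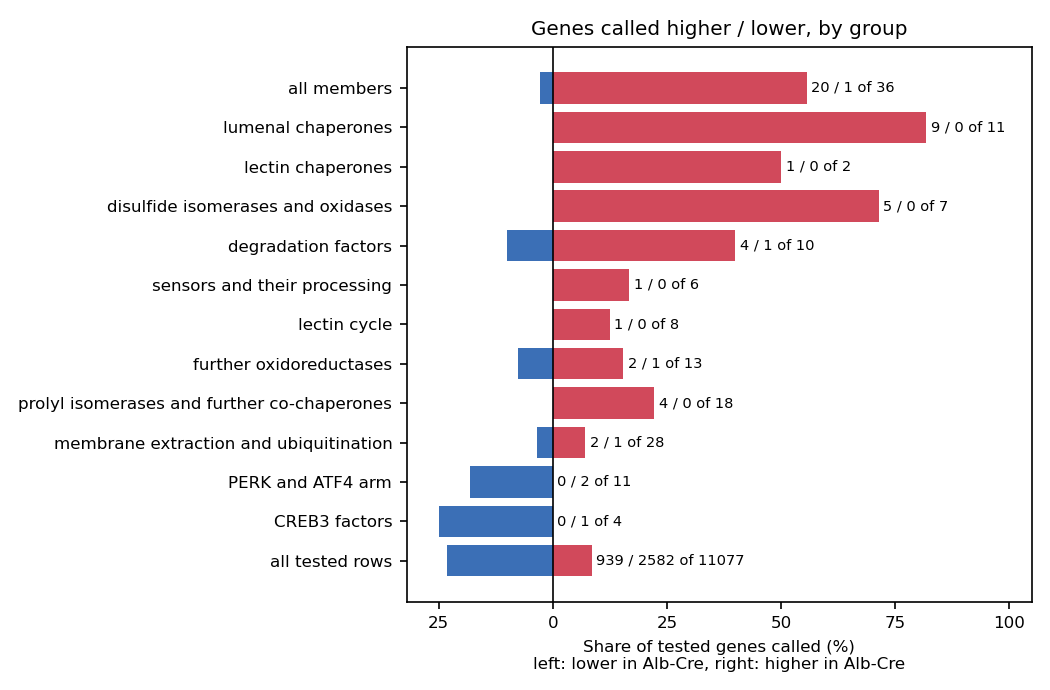
Share of tested genes called higher (right) and lower (left) in Alb-Cre, in percent, for each role of the members, for the other lists and for all tested rows. Lumenal chaperones reach 81.8% and isomerases 71.4% called higher, degradation factors 40.0% and sensors 16.7%, beside 8.48% of all tested rows.

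Scaling between libraries moved the background. The median log2 fold change of all tested rows was -0.13 as deposited and 0.02 with median-of-ratios scaling, and the share called higher and lower went from 8.48% and 23.3% to 16.9% and 13.7%. With that scaling 27 members were called higher and 0 lower. Quantile normalization gave 20 and 0, against 13.7% and 13.3% of rows. With libraries scaled to a common FPKM sum, where the median of all rows was -0.19, 18 were called higher and 1 lower, against 5.62% and 27.2% of rows. Of the 20 members called higher, 17 kept the call in every alternative run, the exceptions being Xbp1, Dnajb9 and Derl2. Derl3, with a mean under 5 FPKM, has no value with the filter at that level.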

How the data were processed

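RNA sequencing of liver, treated as bulk, was analysed in 4 Alb-Cre and 4 Alb-WT libraries, grouped and numbered by their titles. Libraries were made with an Illumina protocol from Trizol-extracted total RNA, per the labels' protocols. The sample descriptions also name 10x Genomics, a maker of single-cell kits, but the table has a single value per gene and library. The authors deposited FPKM values, which are scaled by gene length and library total. The aligner was HISAT2 2.0.5, and the builds mm39 and hg38 are listed with no role, per the submitters' processing notes. Counting tool, annotation and strand setting: not given in the sources used here. Promoter coordinates are those of the RefSeq table (GRCm38.p6), matched by symbol.

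The members and lists were chosen with earlier results of these data known. On log2(FPKM + 1), limma 3.58.1 (R 4.3.3, empirical Bayes with trend) was fitted with genotype only, to the 11077 rows whose mean reached 0.5 FPKM. A call is a Benjamini-Hochberg adjusted p under 0.05, and the pseudocount of 1 understates changes of low genes. Whole fragments were recovered from the FPKM steps for 13703 of 13703 rows (100.0%, tolerance 1e-08), and voom on them, an alternative, called 936 rows higher and 2864 lower, with 22 members higher and 0 lower. The 17 alternatives were pseudocount, filters, scalings, length correction, replicate block, voom and leaving out each library. The text names every member, the 2 called genes of smallest p in each direction of each other list, and gives all libraries for the 10 members changed most with no overlap and for Atf6, Ern1, Xbp1 and Derl3. Fkbp11, Dnajc25, Cela1, Cela2a, Ctrl, Igkc, Sdc1 and Clec4g were named after their values were seen. The recovered fragments give counting error only. The script for the fit was tested on simulated data. Other steps used Python 3.11.15 with pandas 2.3.3 and matplotlib 3.10.9.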

Additional observations from a re-analysis of the deposited data

Results flagged for a closer look

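In 18 of 102 groups of 4 libraries examined, the highest or lowest library lay so far from the other libraries that its gap passed Dixon's 95% critical value, which chance gives in about 1 in 20 groups. Members accounted for 15 of these, among 72 member groups, and 11 of the 15 were Alb-Cre replicate 4, the highest library of its group in 9 and the lowest in 2. Levels of that library were high for Xbp1 (125 FPKM), P4hb (848 FPKM), Sdf2l1 (127 FPKM), Dnajc3 (83.1 FPKM), Dnajc10 (15.4 FPKM), Derl1 (58.2 FPKM), Edem2 (36.1 FPKM), Erlec1 (8.89 FPKM) and Mbtps1 (5.04 FPKM), and low for Hspa5 (355 FPKM, against 407 to 415 in the other Alb-Cre libraries) and Canx (91.0 FPKM). Of the other lists, Asns was at 7.14 FPKM in it.

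Among Alb-WT libraries, replicate 2 was low for Sil1 (16 FPKM), Syvn1 (13.2 FPKM) and Tmx2 (14.5 FPKM), replicate 3 was high for Dnajb9 (25 FPKM) and Ern1 (8.62 FPKM), and replicate 4 was low for Ubxn4 (23.9 FPKM).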

How the results depend on the processing

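The count of members called higher stayed between 18 and 27 in all 17 alternatives. Called lower was 1 member as deposited, and 0 without a filter on low values, with quantile normalization, median-of-ratios scaling, gene length correction and voom on fragments, and 0 to 6 when a library was left out. The 6 came without Alb-Cre replicate 4. Over all rows, 939 higher and 2582 lower became 1522 and 1478 with quantile normalization, 1874 and 1516 with median-of-ratios scaling, 1628 and 1324 with length correction and, higher, 623 with a common FPKM sum. Lower calls were 981 with a mean of at least 5 FPKM. With a library left out, 546 to 1679 were called higher and 1205 to 5112 lower, both maxima being without Alb-Cre replicate 4. The other ER quality control genes called, 11 as deposited, were 25 with median-of-ratios scaling, 21 with length correction and 5 to 29 with a library left out, the last again without Alb-Cre replicate 4.

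Signs turned in 5 members and Nploc4, none of them past the threshold after turning: Dnajc10 (0.05 with quantile normalization, 0.12 with median-of-ratios scaling, 0.11 with length correction, -0.28 to 0.03 with a library left out), Pdia5 (0.09 with median-of-ratios scaling), Herpud1 (-0.01 with quantile normalization), Os9 (0.16 with median-of-ratios scaling, 0.06 with length correction), Mbtps1 (0.07, 0.09 and 0.13 with quantile normalization, median-of-ratios scaling and length correction) and Nploc4 (0.01 with median-of-ratios scaling). The cause was not tested.

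Replicate numbers did not pair the libraries: deviations of same-numbered libraries correlated at -0.065, -0.054, -0.097 and 0.013. With the number as a block, 613 rows were called higher and 1631 lower, 18 members higher and 0 lower, and 6 of the other ER quality control genes. Members of few fragments, such as Derl3 and Mbtps2, have the largest relative counting error. The SE of the limma fit, which also holds the spread between libraries, was largest for Derl3. That of Mbtps2 was smaller than those of Dnajc10, Xbp1, Edem2 and Herpud1, which have more fragments.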

Other observations

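Beside the members, 11 genes of the table held an exact ERSE in the RefSeq promoter, and 7 of them passed the filter on low values. They were picked by sequence after the members' values had been seen. Of the 7, 4 were called higher and 0 lower (limma, as in the report), beside 8.48% and 23.3% of all tested rows. Ero1b, among those called higher, is the listed Ero1lb under its newer symbol, so the genes are not all apart from the member list. Without Alb-Cre replicate 4 there were 4 higher and 2 lower, Acnat2 (-0.88, limma adjusted p = 2.4e-06) and Hnrnpa3 (-0.18, limma adjusted p = 0.0115), beside 15.2% and 46.1%. Acacb, a mitochondrial acetyl-CoA carboxylase, stood at 12.2 ± 3.56 FPKM in Alb-Cre livers against 3.18 ± 0.299 FPKM (SD, n = 4, log2 fold change 1.61, limma adjusted p = 0.00129). Alg12, a mannosyltransferase that builds the sugar chain added to proteins in the ER, stood at 5.24 ± 1.01 FPKM in Alb-Cre against 3.65 ± 0.325 FPKM (SD, n = 4, log2 fold change 0.41, limma adjusted p = 0.0291). Xlr3a had a log2 fold change of 1.5, which is uncertain because near-identical copies of this gene exist, and Ero1b one of 0.30. Hnrnpa3 (-0.04) and Pan2 (0.01) were not called with all libraries, nor was Acnat2 (-0.60, limma adjusted p = 0.0836).

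Gene length ran differently in the genotypes. The rank correlation, over genes, between gene length and a library's deviation from the mean lay between -0.25 and -0.07 in the 4 Alb-Cre libraries and between 0.07 and 0.27 in the 4 Alb-WT libraries, nearest to 0 in replicate 4 of each. Genes are not independent replicates. After a length correction 27 members were called higher and 0 lower.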
